A study of Mus musculus with 10 samples.

Results

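A group of 8 complement genes was followed in mouse melanoma tumors, namely the receptor genes C3ar1, C5ar1 and Vsig4 and the regulator genes Cd55, Cd59a, Serping1, Cr1l and Clu. The 8 were chosen by symbol from a table of 27919 genes, and all 8 had a row and passed the filter on low values. These genes and the other gene lists below were chosen with earlier results of these data known. Their counts beside the share of all genes are therefore descriptive. The tumors were grown from B16F10, a mouse melanoma line, carrying either an Ly86 overexpression construct or the vector, and every mouse in both groups had been given 4 rounds of anti-PD-1 plus anti-CTLA4, antibodies that block inhibitory receptors on T cells. There were 10 libraries of polyadenylated RNA from 7 snap-frozen tumors, 4 Ly86 and 3 vector. Of these, Ly86 tumor 1 and both vector tumors 1 and 2 had been sequenced as 2 pieces, which were averaged on the log2 scale so that the tumor was the replicate. The age, strain and sex of the mice, the promoter driving Ly86 and whether the line was 1 clone are not given in the sources used here. Levels are in TPM, transcripts per 1000000 of a library, and differences are Ly86 minus vector in log2(TPM + 1), which understates the change of genes with low values.

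Complement is a cascade of plasma and locally made proteins that marks particles with fragments of C3 and C4 and ends in a pore called the membrane attack complex. Its cleavage releases the small peptides C3a and C5a, which act on the receptors encoded by C3ar1 and C5ar1, mostly on myeloid cells. Host cells carry or secrete regulators that stop the cascade at different steps, and tumors are known to use several of them. Cr1l, also called Crry, is a membrane regulator of rodents that limits C3 activation on most cells.

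The pigment cell markers that define the line were present in every library, with all 7 above 0 and a summed level of 13581 to 19840 TPM in Ly86 libraries and 9752 to 18796 TPM in vector libraries. Ly86 mRNA itself differed by 1.69 (SE 0.40), without passing over all genes (limma adjusted p = 0.437). Vector tumor 2 stood apart because its pieces differed, with 80.9 TPM of Ly86 in the first and 7.85 TPM in the second. That first piece also held the highest summed macrophage markers of the 10 libraries (727 TPM, against 64.7 in the second piece) and the highest summed fibroblast markers (2867 TPM against 76.8). Each of the 8 genes is therefore also given without it, and with each divided tumor represented by its first piece only. Leaving out a piece that is high in these markers lowers the vector mean of genes that follow them. The difference in Ly86 mRNA was 2.23 without the first piece of vector tumor 2.

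All 8 genes had a higher mean in the Ly86 tumors, but none passed limma's test across all genes. The 4 genes C3ar1, C5ar1, Cd55 and Serping1 averaged between 1.29 and 1.83 log2 units higher, whereas Vsig4 differed by 0.60 and Cd59a, Clu and Cr1l by 0.22 or less. A higher mean in Ly86 tumors was found for 43.8% of the 14556 genes tested, and the median difference was 0.94 over the 8 genes against -0.037 over all genes. At an adjusted p under 0.05, limma called 0% of all genes and 0 of the 8. An unadjusted p under 0.05 with Ly86 higher was reached by 4 of the 8 and by 5.78% of all genes. With pieces averaged on the log2 scale, Ly86 and vector tumors did not overlap for 3 of the 8, with Ly86 higher, and for 4.71% of all genes. Without the first piece of vector tumor 2, these counts were 5 of 8 (11.2% of all genes) and 4 of 8 (8.53%), and the median was 1.46. When divided tumors were represented by their first piece alone, they were 0 of 8 (0.866%) and 0 of 8 (1.46%), and the median was 0.44. Without vector tumor 1 the median was 0.48.

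**Figure D1:**
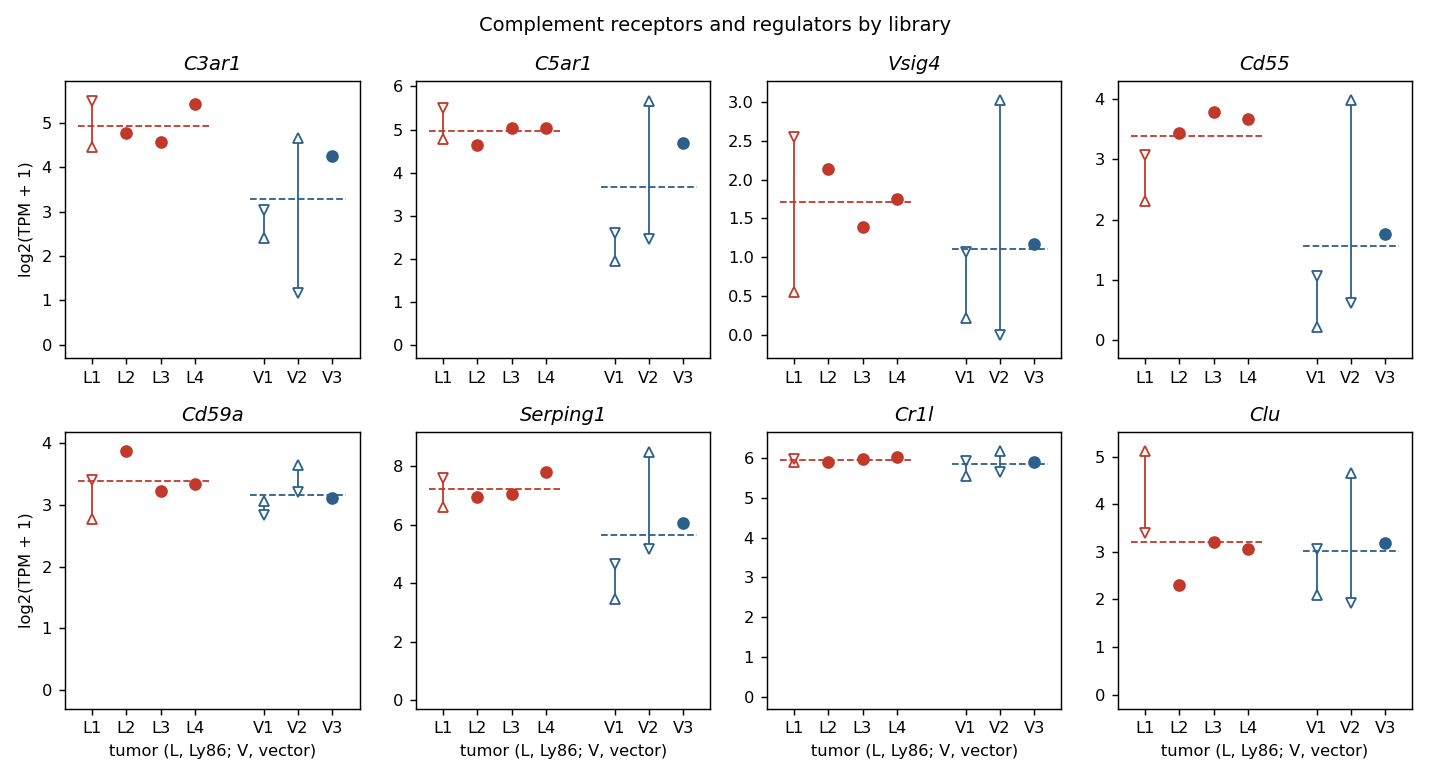
Each panel plots log2(TPM + 1) of 1 gene (y axis, scale set per panel) against tumor (x axis: L1 to L4, Ly86 tumors; V1 to V3, vector tumors). Filled circles are tumors with 1 library, open triangles pointing up and down are the first and second piece of a divided tumor joined by a line, and dashed lines are group means over tumors. The first piece of vector tumor 2 lies among or above the Ly86 libraries in all 8 panels and the second below all Ly86 libraries in 7 panels, all but that of Cd59a.

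C3ar1 encodes the receptor for the anaphylatoxin C3a. Ly86 tumor 1 held 21.2 and 44.5 TPM in its pieces, and Ly86 tumors 2, 3 and 4 held 26.5, 22.8 and 42 TPM. Levels in the vector group were 4.33 and 7.21 TPM in tumor 1, 24.1 and 1.24 TPM in tumor 2, and 18.2 TPM in tumor 3. With pieces averaged, all 4 Ly86 tumors exceeded all 3 vector tumors, although the first piece of vector tumor 2 alone lay within the Ly86 range. The means were 4.94 ± 0.37 log2(TPM + 1) (SD, n = 4) and 3.30 ± 0.84 (SD, n = 3). The difference was 1.64 (SE 0.38, 95% interval 0.78 to 2.51, limma adjusted p = 0.437). Leaving out that piece gave 2.22, and using first pieces only gave 1.04.

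C5ar1 encodes the receptor for C5a, a strong attractant of neutrophils and macrophages. Ly86 tumor 1 held 26.3 and 44.4 TPM, and Ly86 tumors 2, 3 and 4 held 24.1, 31.7 and 31.8 TPM. Vector tumor 1 held 2.88 and 5.07 TPM, vector tumor 2 held 49.95 and 4.49 TPM, and vector tumor 3 held 24.6 TPM. The groups overlapped, since vector tumor 3 lay just above Ly86 tumor 2, and the first piece of vector tumor 2 was the highest of all 10 libraries. The difference of 1.29 (SE 0.49, 95% interval 0.15 to 2.43, limma adjusted p = 0.449) rested largely on vector tumor 1 and was 0.59 (SE 0.22) without it. With only the second piece standing for vector tumor 2 it was 1.83, and with first pieces only it was 0.77. The SD was 0.21 among Ly86 tumors and 1.25 among vector tumors.

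Vsig4 encodes CRIg, a receptor of tissue-resident macrophages that binds C3b and iC3b. It was the least abundant of the 8, at 0.47 to 4.85 TPM in the 5 Ly86 libraries. The pieces of vector tumor 1 held 0.16 and 1.1 TPM, and 1.25 TPM were measured in vector tumor 3. The first piece of vector tumor 2 had the highest level of any library, 7.16 TPM, and its second was listed at 0. The pieces of Ly86 tumor 1 also differed, at 0.47 and 4.85 TPM. The difference of 0.60 (SE 0.30, limma adjusted p = 0.506) was 1.37 with a pseudocount of 0.1 and -0.014 with first pieces only, so its size depended on the scale and its sign on the pieces used. It was 1.10 with vector tumor 2 taken from its second piece.

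Cd55 encodes decay-accelerating factor, a membrane protein that takes apart the C3 convertases. It had the largest difference of the 8. Ly86 tumor 1 held 3.95 and 7.42 TPM, and Ly86 tumors 2, 3 and 4 held 9.82, 12.8 and 11.7 TPM. Vector tumor 1 held 0.16 and 1.09 TPM, vector tumor 2 held 14.8 and 0.53 TPM, and vector tumor 3 held 2.38 TPM. The tumors did not overlap when pieces were averaged on the log2 scale. In TPM they do, since the plain average of 14.8 and 0.53 in vector tumor 2 exceeds that of 3.95 and 7.42 in Ly86 tumor 1. The first piece of vector tumor 2 was the highest of the 10 libraries. The difference was 1.83 (SE 0.42, 95% interval 0.86 to 2.80, limma adjusted p = 0.437), and it was 2.39 without that piece, 1.37 without vector tumor 1 and 1.31 with first pieces only. With limma's array weights, whose estimation stopped before converging, the gene passed (difference 1.58, adjusted p = 0.0226), where vector tumor 3 counted with a weight of 22.8 and every other tumor with less than 1. Over the other 18 alternatives its adjusted p ranged from 0.0532 to 1.

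Serping1 encodes the C1 inhibitor, a secreted protease inhibitor that stops C1r, C1s and the MASP proteases. It was the most abundant of the 8 in Ly86 tumors. Ly86 tumor 1 held 97.3 and 191 TPM, and Ly86 tumors 2, 3 and 4 held 123, 131 and 222 TPM. Vector tumor 1 held 10.1 and 23.9 TPM, vector tumor 2 held 361 and 35.1 TPM, and vector tumor 3 held 65.6 TPM. The tumors averaged on the log2 scale did not overlap, though the margin between Ly86 tumor 2, at 6.95 log2(TPM + 1), and vector tumor 2, at 6.84, was small. In TPM they do overlap, since the plain average of 361 and 35.1 in vector tumor 2 exceeds the 123 and 131 TPM of Ly86 tumors 2 and 3. The difference was 1.57 (SE 0.58, 95% interval 0.24 to 2.91, limma adjusted p = 0.441) and 0.78 (SE 0.30) without vector tumor 1. It was 2.13 with the second piece alone for vector tumor 2 and 1.09 with first pieces only. Array weights again gave a pass (1.23, adjusted p = 0.0488), as they did for 1832 of the 14556 genes. Under the same weights C3ar1 and C5ar1 did not pass and differed by 0.80 and 0.35. Over the other 18 alternatives the adjusted p of Serping1 was 0.0823 to 1.

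The membrane regulators Cr1l and Cd59a showed small differences between the groups. Cr1l was nearly level, at 58.3 to 64 TPM in the 5 Ly86 libraries and 45.5 to 71 TPM in the 5 vector libraries. Its difference of 0.11 (SE 0.094, 95% interval -0.11 to 0.32, limma adjusted p = 0.715) had the narrowest interval of the 8. Cd59a, which blocks assembly of the membrane attack complex, held 5.86 to 13.7 TPM in Ly86 and 6.16 to 11.6 TPM in vector libraries. Its difference was 0.22 (SE 0.22, 95% interval -0.29 to 0.73, limma adjusted p = 0.756). For both genes the groups overlapped, and the highest vector library was the first piece of tumor 2. Without that piece the differences were 0.19 for Cr1l and 0.29 for Cd59a, and with first pieces only they were 0.074 and 0.026.

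Clu encodes clusterin, a secreted chaperone that also binds the membrane attack complex. Ly86 tumor 1 held 33.7 and 9.51 TPM in its pieces, the first being the highest of the 10 libraries, and the other Ly86 tumors held 3.93, 8.28 and 7.39 TPM. Levels were 3.29 and 7.38 TPM in vector tumor 1, 24.4 and 2.79 TPM in vector tumor 2, and 8.06 TPM in vector tumor 3. The highest and lowest tumor were both Ly86 tumors. The difference of 0.19 (SE 0.42, 95% interval -0.78 to 1.16, limma adjusted p = 0.914) turned to -0.16 without Ly86 tumor 1 and to -0.027 without vector tumor 1. It was 0.65 with the second piece alone for vector tumor 2 and 0.11 with first pieces only.

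**Figure D2:**
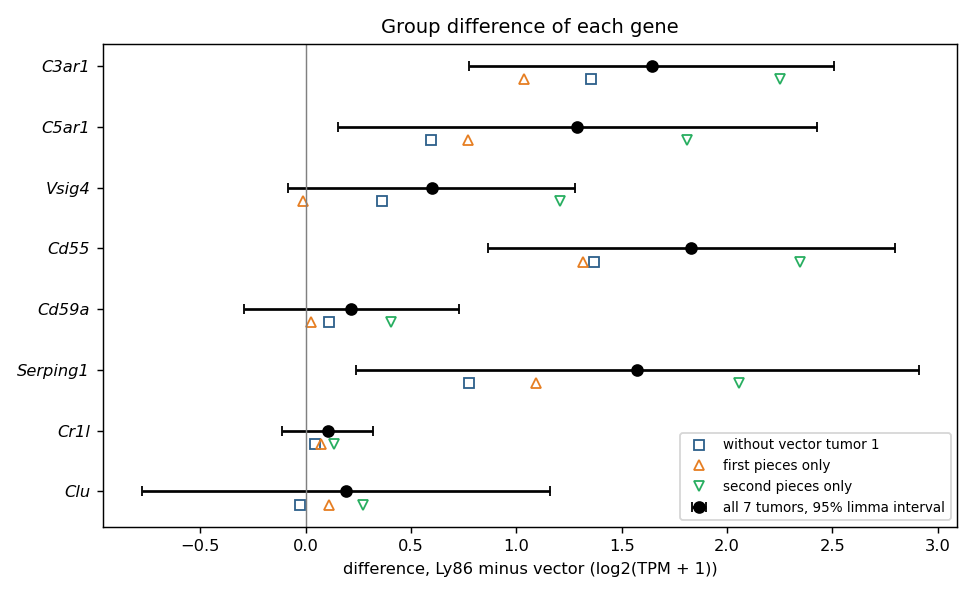
Black points are the differences in log2(TPM + 1), Ly86 minus vector (x axis), of each gene (y axis) over 7 tumors with 95% limma intervals, and open symbols are the same differences without vector tumor 1, with first pieces only and with second pieces only. The intervals of C3ar1, C5ar1, Cd55 and Serping1 lie above 0, unadjusted for the number of genes, and for all 8 genes the difference was larger with second pieces than with first pieces.

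The order of mean levels was not the same in both groups. In Ly86 tumors Serping1 was highest, followed by Cr1l, and both lay above the next gene in 4 of 4 tumors. C5ar1 and C3ar1 came next without separating from each other, at 4.96 ± 0.21 and 4.94 ± 0.37 log2(TPM + 1) (SD, n = 4). Cd55, Cd59a and Clu followed with overlapping ranges, and Vsig4 was lowest in every Ly86 tumor. In vector tumors Cr1l had the highest mean, at 5.85 ± 0.10 (SD, n = 3), and Serping1, at 5.65 ± 1.43, exceeded it in 2 of 3 tumors. Cd55 had a mean close to that of Cd59a in Ly86 tumors and lay below both Cd59a and Clu in vector tumors. The change of order was not tested.

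The pieces of the divided tumors also differed in these genes. In vector tumor 2, C3ar1, C5ar1, Vsig4, Cd55, Serping1 and Clu were 2.74 to 3.49 log2 units higher in the first piece, while Cd59a and Cr1l were 0.44 and 0.51 higher. The median absolute difference between these pieces over all tested genes was 0.36. In vector tumor 1 the second piece held more of 7 of the 8 genes, all but Cd59a, with first minus second between -0.38 for Cr1l and -1.17 for Serping1. In Ly86 tumor 1 the second piece also held more of 7 genes, with -0.083 for Cr1l to -1.99 for Vsig4, and Clu was 1.72 higher in the first. The median absolute differences over all genes were 0.21 and 0.20 in these tumors.

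**Figure D3:**
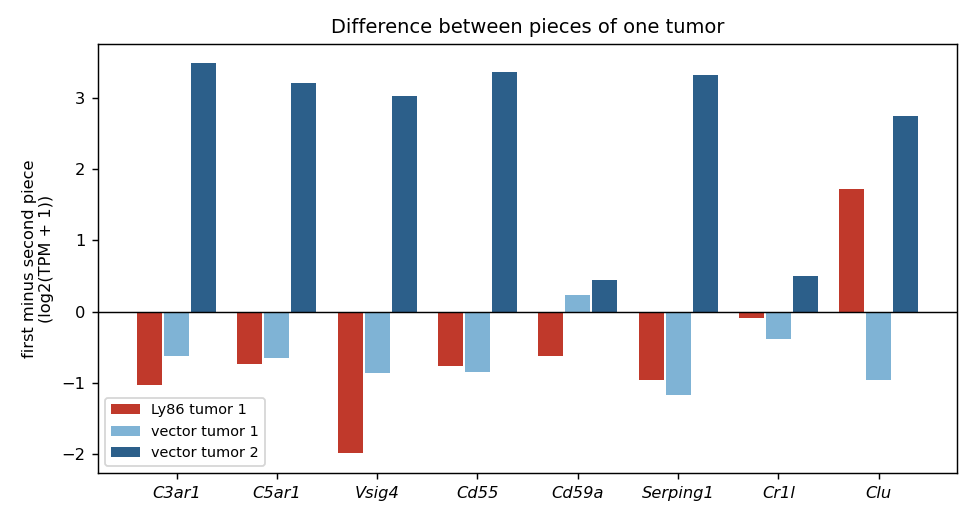
Bars give log2(TPM + 1) of the first piece minus that of the second (y axis) for each gene (x axis) in the 3 divided tumors. In vector tumor 2 all 8 bars are above 0 and 6 reach at least 2.74, whereas in the other tumors most bars are below 0.

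Markers of several cell types varied between the same libraries. The 6 macrophage markers (Adgre1, Csf1r, Cd68, Mertk, Fcgr1 and Cd14), all above 0 in every library, summed to 260 to 505 TPM in Ly86 libraries and to 51.7 to 727 TPM in vector libraries. The 7 fibroblast markers, also all above 0, summed to 592 to 1592 TPM and 76.8 to 2867 TPM. The resident macrophage sums were 77.4 to 227 and 6.63 to 407 TPM, with 4 of 5 markers above 0 throughout. The neutrophil sums were 10.4 to 84.2 and 2.49 to 99 TPM, with 3 of 6 markers above 0 throughout. The sums of 5 endothelial markers were 46.4 to 106 and 27.3 to 200 TPM, and those of 5 T cell markers 25.1 to 62 and 2.42 to 83.2 TPM. B cell markers summed to 1.67 to 3.43 TPM in Ly86 and 0.88 to 6.55 TPM in vector libraries. The liver markers Alb, Apoa1 and Ttr summed to at most 0.45 TPM and so were near 0 in every library. Mast cell sums were 17.2 to 62.7 TPM in Ly86 and 0.08 to 140 TPM in vector libraries, and those of dendritic cells 7.84 to 15.4 and 4.58 to 16.5 TPM. Tissue markers varied within both groups, with 0.31 to 2323 and 0 to 630 TPM for keratinocytes, 0.87 to 627 and 5.95 to 187 TPM for skeletal muscle, 71.1 to 248 and 12.1 to 714 TPM for adipocytes, and 119 to 291 and 151 to 1255 TPM for erythroid cells. With pieces averaged, all 7 fibroblast markers had a higher mean in Ly86 tumors, with a median difference of 1.47, and 5 of 7 did not overlap. A higher mean was also found for 4 of 4 resident macrophage markers tested (median 1.63, 4 of 4 without overlap), for 6 of 6 macrophage markers (median 1.14, 1 of 6) and for 5 of 5 T cell markers (median 1.18, 1 of 5), beside 0.94 and 3 of 8 for the complement genes. Mast cell (4 of 4, median 1.07) and neutrophil markers (5 of 5, 0.80) were higher too, with 0 without overlap in either list. Fewer were higher among endothelial (3 of 5, 0.10), pigment cell (3 of 7, -0.032), keratinocyte (0 of 4, -0.86), skeletal muscle (0 of 4, -0.31) and erythroid markers (0 of 2, -0.66). Of all genes, 43.8% had a higher mean and 4.71% were higher without overlap. In bulk tumors, fewer cells of a type and less RNA per cell cannot be told apart, and the part of cell content in the group differences was not tested.

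Relative to the mean of the 6 macrophage markers, which was itself 0.95 log2 units higher in Ly86 tumors, the differences changed size and in part sign. The difference relative to the markers was 0.88 for Cd55, 0.69 for C3ar1, 0.62 for Serping1 and 0.34 for C5ar1, and each of these overlapped between the groups. It was -0.35 for Vsig4, -0.73 for Cd59a, -0.76 for Clu and -0.85 for Cr1l, the one gene of the 8 for which the groups did not overlap on this scale, by a margin of 1.06 in Ly86 tumor 3 against 1.07 in vector tumor 3. In the pieces of vector tumor 2, Cr1l stood at -0.32, the lowest of the 10 libraries, and at 2.49. The marker mean itself did not overlap between the groups, and the share of all genes without overlap on this scale was not computed. C3ar1 minus the marker mean was -1.84 and -2.01 in the pieces of vector tumor 2 and between -0.037 and -0.56 in the other 8 libraries. Both pieces of vector tumor 2 were thus low in C3ar1 for their macrophage markers, although their C3ar1 levels were the highest and the lowest of the vector libraries. Serping1 stood 2.01 and 2.00 above the marker mean in the same pieces, within the range of 1.73 to 2.34 of the Ly86 libraries. Against the mean of the 7 fibroblast markers, which was 1.51 higher in Ly86 tumors, each of the 8 differences was lower still. They were 0.32 for Cd55, 0.13 for C3ar1, 0.064 for Serping1 and -0.22 for C5ar1, and the groups overlapped for each of these 4 genes. Those of the other members were -0.91 for Vsig4, -1.29 for Cd59a, -1.32 for Clu and -1.41 for Cr1l, the last again without overlap of the averaged tumors. In the pieces of vector tumor 2, Cr1l stood at -1.12 and 3.43 against the fibroblast markers, the lowest and highest of the 10 libraries. These values describe ratios within a library and were not tested.

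**Figure D4:**
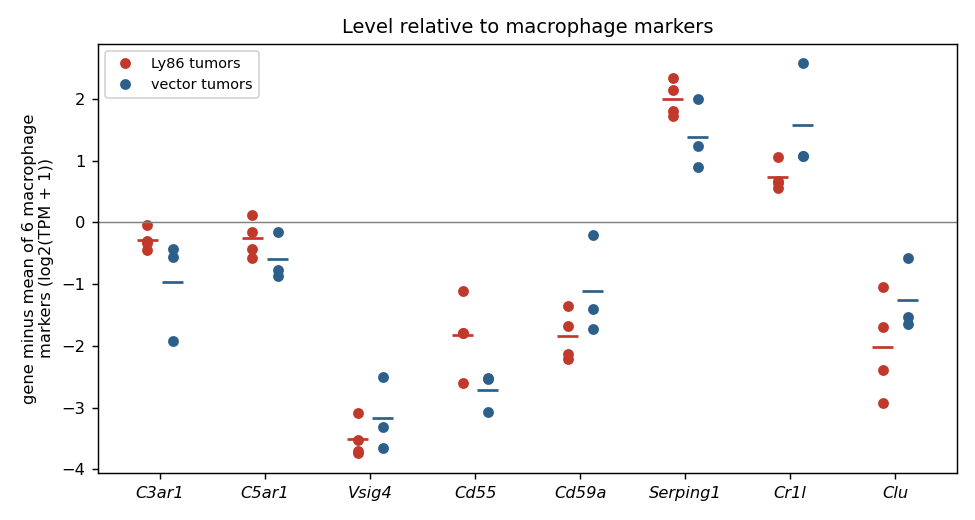
Points are tumors and short bars group means; the y axis gives log2(TPM + 1) of a gene minus the mean of 6 macrophage markers, and the x axis the genes. The groups overlap for 7 genes, while Cr1l lies between 0.56 and 1.06 in Ly86 tumors and between 1.07 and 2.57 in vector tumors.

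Across the 10 libraries, C5ar1, Serping1 and Cd55 followed each other most closely of the 8, with Pearson r of 0.95 for C5ar1 with Serping1, 0.94 for Serping1 with Cd55 and 0.91 for C5ar1 with Cd55. C3ar1 and C5ar1 had an r of 0.90, and Clu with Cd59a the lowest, at -0.18. The level of Ly86 itself followed C5ar1 with an r of 0.98 and the others with an r between 0.50 for Cd59a and 0.96 for Serping1. These correlations describe 10 libraries that include pieces of the same tumors and share the contrast between the pieces of vector tumor 2. The genes most like each member on the same measure differed by member. For C3ar1 they were Cd83 (r = 0.98), Vrk2 and Abcg3, and for C5ar1 Alox5ap, which acts in leukotriene synthesis (r = 0.99), Lrrc25 and Epsti1. For Serping1 they were Plac8 (r = 0.99), Aoah and Pla2g7. Cd55 was most like Efemp1, which encodes a matrix protein (r = 0.98), Scara3 and Pi16, a fibroblast gene. Vsig4 was most like the lectin gene Cd209b (r = 0.98), Tppp3 and Tmem38b. Cr1l was most like Meg3 (r = 0.96), Cpxm1 and Osmr, Clu most like Efnb2 (r = 0.95), Lrig1 and Mcfd2, and Cd59a most like Ech1 (r = 0.92), Nat9 and Oxr1.

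Of the 8, 6 had a promoter in the RefSeq table for build GRCm38.p6, which is not the mm39 build of the expression values. The 250 bases before the start are shown for the 2 anaphylatoxin receptors and Cd55, whose group means differed by 1.29 to 1.83, and for Cr1l, which was nearly level between the groups. Capitals mark matches on either strand to any of 3 motifs: the ETS core AGGAAG, the AP-1 site TGANTCA and the gamma-activated site TTCNNNGAA.
C3ar1: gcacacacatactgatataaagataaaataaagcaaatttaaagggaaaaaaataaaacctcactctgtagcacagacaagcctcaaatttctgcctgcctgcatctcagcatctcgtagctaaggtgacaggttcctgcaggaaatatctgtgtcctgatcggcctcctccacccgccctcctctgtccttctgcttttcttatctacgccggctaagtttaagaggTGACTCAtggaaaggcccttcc
C5ar1: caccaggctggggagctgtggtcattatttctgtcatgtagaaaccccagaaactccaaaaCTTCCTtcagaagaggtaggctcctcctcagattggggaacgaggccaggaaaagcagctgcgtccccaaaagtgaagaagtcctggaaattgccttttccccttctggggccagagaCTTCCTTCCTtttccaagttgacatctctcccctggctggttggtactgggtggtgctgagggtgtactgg
Cd55: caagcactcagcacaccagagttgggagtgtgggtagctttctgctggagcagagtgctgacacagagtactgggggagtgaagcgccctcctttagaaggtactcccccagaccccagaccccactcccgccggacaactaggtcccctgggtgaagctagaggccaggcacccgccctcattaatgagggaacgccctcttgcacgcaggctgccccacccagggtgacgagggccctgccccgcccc
Cr1l: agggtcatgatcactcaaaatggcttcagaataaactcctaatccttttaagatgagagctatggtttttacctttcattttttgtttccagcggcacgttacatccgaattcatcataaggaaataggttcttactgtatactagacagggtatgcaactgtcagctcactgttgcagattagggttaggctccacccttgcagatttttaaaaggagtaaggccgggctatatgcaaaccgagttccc
The C3ar1 sequence lies at chr6:122856158-122856407, that of C5ar1 at chr7:16259339-16259588, that of Cd55 at chr1:130462745-130462994 and that of Cr1l at chr1:195131571-195131820, all on the minus strand. C3ar1 had 1 AP-1 match near the start and C5ar1 had 3 ETS matches, 2 of them overlapping. Cd55 and Cr1l had 0 matches to the 3 motifs, as had Vsig4 and Cd59a. Over 32851 promoter windows of the same length, 29.5% held the ETS core, 6.75% the AP-1 site and 7.02% the gamma-activated site. A match describes the letters of this window only.

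The precursors of C3a and C5a were found at very different levels. C3, the source of C3a, held 59.6, 70.4, 121 and 110 TPM at the mean log2 level of Ly86 tumors 1 to 4 and 4.03, 26.3 and 23.3 TPM in vector tumors 1 to 3. The groups overlapped over the 10 single libraries but not on that averaged scale, where the difference was 2.55 (SE 0.57, limma adjusted p = 0.437). It was 1.80 with first pieces only and 3.26 when vector tumor 2 was taken from its second piece. Hc, which encodes C5, the source of C5a, held at most 0.44 TPM in any library and averaged 0.19 TPM, below the level tested. C5ar2, the second receptor for C5a, held at most 0.80 TPM, and Cr2, the B cell receptor for C3d, at most 0.25 TPM.

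Of 21 other receptors and regulators listed, 18 matched a row and 10 were abundant enough to test. Of these, 8 averaged higher and 2 lower in Ly86 tumors (43.8% of all genes were higher), with a median difference of 0.78, and 0 passed limma over all genes. An unadjusted p under 0.05 with Ly86 higher was reached by 6 of 10 (5.78% of all genes). With pieces averaged on the log2 scale, tumors did not overlap for 5 of 10 with Ly86 higher (4.71% of all genes) and for 1 with Ly86 lower. Over the 10 single libraries, 0 of 10 were without overlap with Ly86 higher (0.515% of all genes) and 0 with Ly86 lower. With first pieces only, the counts with Ly86 higher were 0 and 0 of 10 (0.866% and 1.46% of all genes). The median was 0.45 with first pieces only, 1.14 with the second piece alone for vector tumor 2 and 0.49 without vector tumor 1. Itgam, the alpha subunit of complement receptor 3, held 35.2 to 48.7 TPM at the mean log2 level of the 4 Ly86 tumors. On that scale it held 5.19, 27.7 and 26.9 TPM in the 3 vector tumors. The pieces of vector tumor 2 held 102 and 7.05 TPM of Itgam. In TPM the groups overlap, since the plain average of these pieces exceeds the 48.7 TPM of Ly86 tumor 4. Itgb2, the partner of Itgam, differed by 1.16 (SE 0.47), and Itgax, which pairs with Itgb2 in complement receptor 4, by 0.83 (SE 0.31). Without vector tumor 1 the differences were 0.56 for Itgam, 0.48 for Itgb2 and 0.49 for Itgax. Properdin, encoded by Cfp, stabilizes the alternative convertase and differed by 1.53 (SE 0.44). At the mean log2 level of each tumor, Cfp held 62.3 to 67.8 TPM in the 4 Ly86 tumors and 8.03, 35.2 and 33.8 TPM in the 3 vector tumors. The groups did not overlap on that scale, on which vector tumor 2 lies below the plain average of its 2 pieces. The difference of Cfp was 2.18 when vector tumor 2 was taken from its second piece. It was 0.87 without vector tumor 1 and 0.79 with first pieces only. Thbd, which encodes the thrombin receptor thrombomodulin, differed by 0.72 (SE 0.20), which was 0.28 with first pieces only and 1.19 when vector tumor 2 was taken from its second piece. On the lower side was C1qbp, at -0.22 (SE 0.096, limma adjusted p = 0.469) and without overlap between the groups. That also held for 837 of the 14556 tested genes with Ly86 lower, and with median-of-ratios scaling the groups overlapped for C1qbp. Also lower was Vtn, which encodes vitronectin, at -0.13 (SE 0.32), which was 0.35 with second pieces only. These 2 genes were named after their values were seen.

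Of 28 complement components listed, 25 matched a row and 17 were tested. All 17 averaged higher in Ly86 tumors (43.8% of all genes), with a median of 1.03 and 0 past the threshold in limma. An unadjusted p under 0.05 was reached by 9 of 17 and by 5.78% of all genes. With pieces averaged on the log2 scale, 8 of 17 did not overlap, against 4.71% of all genes with Ly86 higher. With first pieces only, both counts were 0 of 17 (0.866% and 1.46% of all genes) and the median was 0.54. With the second piece alone for vector tumor 2 they were 11 of 17 (11.2%) and 9 of 17 (8.53%). The median was 0.51 without vector tumor 1. Besides C3, the smallest unadjusted p were those of Fcna, which encodes a ficolin, at 1.75 (SE 0.40), C1s1, the protease that the C1 inhibitor blocks, at 1.75 (SE 0.49), and C6, a part of the membrane attack complex, at 1.00 (SE 0.34). The limma adjusted p was 0.437 for these 3 genes. At the mean log2 level, C1s1 held 42, 39.8, 53 and 78 TPM in Ly86 tumors 1 to 4 and 5.78, 32.2 and 15.5 TPM in vector tumors 1 to 3. The groups did not overlap on that scale, on which vector tumor 2 lies below the plain average of its 2 pieces. Over the 10 single libraries, 0 of the 17 components were without overlap with Ly86 higher (0.515% of all genes). With first pieces only the difference of C1s1 was 1.08, and those of Fcna and C6 were 0.91 and 0.54. That of C1s1 was 2.37 with the second piece alone for vector tumor 2.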

How the data were processed

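Polyadenylated RNA of 7 B16F10 tumors was sequenced in 10 libraries. The submitters' processing notes name STAR 2.7.10b, RSEM 1.3.3 and the build mm39. The authors deposited log2(TPM + 1) values for 27919 symbols; this scale was read from the values, since 2 to the value minus 1 was a multiple of 0.01 for 99.9% of values (within 1e-04 hundredths) and summed to 994679 to 996446 per library. Read depth is unknown, so no counting interval is given. Between 19304 and 21882 genes were above 0 in a library. How reads were split between near-identical genes such as Cr1l and its pseudogene, Cd59a and Cd59b, Cd55 and Cd55b, or C1s1 and C1s2 is not stated in these sources, so their separate values are uncertain.

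Pieces of 1 tumor were averaged on the log2 scale. The 14556 genes whose TPM averaged 1 or more across tumors were fitted with limma 3.58.1 in R 4.3.3 (eBayes with trend, Benjamini-Hochberg over all tested genes, threshold 0.05). Nothing says that each tumor came from its own mouse, so the p-values reflect only the variation among these tumors, which may be partly technical. The fit was run on simulated data with independent normal values and, for each gene, the same spread in both groups. In these tumors the spread could differ, as for C5ar1 (SD 0.21 in Ly86 and 1.25 in vector tumors). That run therefore does not show how the fit behaves here. The genes, marker lists and pathway lists were chosen with earlier results of these data known. Named genes were the 8 members, the 4 smallest unadjusted p of each pathway list with C3, Hc, Itgam, Itgax and Itgb2, and for each member the 3 genes with the highest Pearson r over 10 libraries, leaving out Gm and Rik names; 1 gene that this rule names is not reported here. Marker lists for mast cells, dendritic cells, keratinocytes, skeletal muscle, adipocytes and erythroid cells were also summed. Alternatives were pseudocounts of 0.1 and 0.5, no filter, a filter at 5 TPM, median-of-ratios scaling, the tumor as a random block, single pieces, robust estimation, blocking on the tumor number, array weights, and fits that omit 1 tumor each. Plots were made in Python 3.11.15 using matplotlib 3.10.9.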

Additional observations from a re-analysis of the deposited data

Results flagged for a closer look

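In the 4 Ly86 tumors, 2 of the 21 genes examined had 1 tumor set apart from the other 3 by Dixon's ratio, where chance marks about 1 in 20. The ratio divides a gap by the range and does not measure its size, which was small for Cfp. Itgax was 3.56 log2(TPM + 1) in Ly86 tumor 1 and 2.97 to 3.01 in the other 3. Cfp was 6.10 log2(TPM + 1) in Ly86 tumor 4, or 67.8 TPM, and 62.3 to 62.8 TPM in the other 3.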

How the results depend on the processing

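In limma, 0 genes passed in the reported fit, with 1565 at an unadjusted p under 0.05. The number that passed was 1 with first pieces only, 6 with second pieces only, 1 without the first piece of vector tumor 2, 1832 with array weights, whose estimation stopped before converging, and 0 to 2 when each tumor was left out in turn. It was 0 under the 8 remaining settings. The number of members with an unadjusted p under 0.05 was 2 with the tumor as a random block (3.48% of all genes with Ly86 higher), 0 with first pieces only (0.866%), and 2 to 5 when each tumor was left out (3.34% to 8.55%). The tumor number as a replicate block gave 2 in place of 4 (2.43%) and 643 genes in all at that level. Deviations of same-numbered tumors from their group means had r of -0.17, -0.11 and -0.31 over all tested genes. Those of differently numbered tumors had r of -0.22 to 0.35. So few pairs cannot tell whether same-numbered tumors shared more than a number. Non-overlapping members numbered 0 over 10 single libraries (0.515% of all genes), 0 with first pieces only (1.46%), 5 with second pieces only (8.34%) and 3 to 5 with each tumor left out (5.78% to 10.4%). The median difference of the members was 1.39 with a pseudocount of 0.1, 0.44 with first pieces only, 1.51 with second pieces only, 1.46 without the first piece of vector tumor 2, 0.46 with array weights and 0.48 to 1.20 with each tumor left out. Direction turned for Vsig4 (-0.014 with first pieces only) and Clu (-0.16 with Ly86 tumor 1 left out and -0.027 with vector tumor 1 left out, in a range up to 0.49 over the tumors left out in turn). It also turned for Vtn, to 0.35 with second pieces only, 0.30 without the first piece of vector tumor 2, 0.18 with array weights, 0.038 with Ly86 tumor 2 left out and 0.065 with vector tumor 2 left out, in a range of -0.32 to 0.065 over the tumors left out. The cause of these changes was not tested. The other 6 members kept their direction in all 19 alternatives. Vsig4 was too low to enter the fit at a minimum mean TPM of 5. The median of all genes ranged from -0.0655 to 0.00311 over the 19 alternatives.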
